A study of Mus musculus with 18 samples.

Results

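The 36 genes described here encode the mouse integrin subunits and the laminin chains: 18 integrin alpha subunits, 8 integrin beta subunits and 10 laminin chains. They are rows of a table of 27743 genes whose symbols begin with Itga, Itgb, Lama, Lamb or Lamc and end in a subunit's or chain's own number or letter. This naming rule uses no expression value, but members and classes were chosen with earlier results of these data known. By where each is chiefly made in skin, as general knowledge, 7 were taken as epidermal, 12 as stromal, 9 as leukocyte and platelet, and 8 as broad or mixed. Of the 36 genes, 32 reached an FPKM of 1 in at least 3 of 18 libraries and were tested with 13078 genes in all. FPKM counts the fragments of a gene relative to its length in kilobases and to the counted fragments of the library. The other 4 stayed below 1 FPKM in every library: Itga8 at 0.151 to 0.525, Itga10 at 0.323 to 0.933, Itgad at 0.0154 to 0.0863 and Lama1 at 0.00951 to 0.208.

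RNA came from mouse skin flaps at day 7, after flap surgery in every group. The D15L100, D15L150, D15L200, D100L150 and D150L150 flaps lay over mesh-like spacers printed with different diameters and spacings, and Control flaps received no treatment after the surgery. Each group had 3 libraries; strain, sex, age, whether libraries came from separate animals, and the unit or meaning of the D and L numbers are not given in the labels. The depth of a library was 28122056 to 34881279 fragments, as recovered from the values, and 11778 to 12488 genes had at least 1 FPKM.

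Integrins are cell surface receptors made of an alpha and a beta subunit, and most of them bind extracellular matrix proteins or ligands on other cells. Laminins are trimers of an alpha, a beta and a gamma chain and form the sheet on which basement membranes are built. Under the epidermis, the laminin that holds the Lama3 and Lamb3 chains is bound by integrin alpha6 beta4 in hemidesmosomes, the anchoring junctions of basal keratinocytes, and migrating keratinocytes at wound edges are known to make much of it. Leukocytes carry the beta2 integrins, among them Itgam with Itgb2 on neutrophils and macrophages.

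In flaps over spacers Lama3 and Lamb3 had the largest differences above Control of the 32 tested members in D100L150 and in D150L150, and Lama5 was the only member below Control in all 15 spacer libraries. Lama3 rose in D100L150 and D150L150, and Lama5 fell in D100L150 and in the mean of the 5 spacer groups. No stromal or leukocyte member passed the test in any comparison. Changes are given as spacer group minus Control on the log2(FPKM + 1) scale, with the standard error (SE) from limma, and a change was called where the p adjusted by Benjamini-Hochberg over all 13078 genes was under 0.05. Adding 1 understates the change of low genes.

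The calls rest on few libraries. Control 1 stood at the low end of the first principal component of all genes, at -69.9 where the other 17 libraries lay at -49.7 to 37.5, and D100L150 1 was the next lowest. Keratin 14, the keratin of basal keratinocytes, was at 788 FPKM in Control 1 and at 1711 and 1692 FPKM in Control 2 and 3. Summed over 4 basal keratinocyte genes, the libraries held 4796 to 5821 FPKM in D100L150 and 5870 to 7163 in D150L150, against 1228 to 3568 in Control. Keratin 14 made up most of that sum, averaging 3952 FPKM in D100L150, where the sum averaged 5477 FPKM. The mean log2(FPKM + 1) of the 4 genes was 7.52, 8.68 and 7.96 in D100L150 and 8.77, 8.42 and 9.41 in D150L150. It was 5.91, 8.41 and 8.11 in Control, so D100L150 overlapped Control on that scale. Summed over 6 skeletal muscle genes the libraries held 1949 to 11490 FPKM in D100L150 and 1717 to 3456 in D150L150, against 6649 to 14750 in Control. In such bulk tissue, fewer cells of a type and less RNA per cell cannot be told apart.

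The promoters of 2 genes are shown: Lamb3, a gene of the epidermal laminin, and Lama5. These 2 were picked because their D100L150 and D150L150 libraries lay on opposite sides of Control, though Lamb3 was not called. The promoters are RefSeq windows from 250 bases before to 50 bases after a transcript start in build GRCm38.p6, both printed 5′ to 3′ along the gene. Lamb3 is on chromosome 1 at 193294353 to 193343878, plus strand, and has windows at chr1:193301744-193302043 and chr1:193301993-193302292. Both Lamb3 windows lie inside these gene bounds, and no window at the 5′ end of the gene was given. Lama5 is on chromosome 2 at 180176373 to 180225904, minus strand, with its window at chr2:180225810-180226109. Capitals mark the letters GGGCGG of a GC box and GGAATG, which TEAD factors bind, on either strand; TGANTCA for AP-1 and TATAAA for a TATA box were also searched and are absent from these 3 windows.
Lamb3 first window: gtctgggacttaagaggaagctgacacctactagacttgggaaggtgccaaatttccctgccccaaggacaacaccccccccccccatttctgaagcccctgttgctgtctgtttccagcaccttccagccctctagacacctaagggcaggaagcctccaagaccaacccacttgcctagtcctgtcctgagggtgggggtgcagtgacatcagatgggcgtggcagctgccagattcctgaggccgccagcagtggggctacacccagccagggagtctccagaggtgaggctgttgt
Lamb3 second window: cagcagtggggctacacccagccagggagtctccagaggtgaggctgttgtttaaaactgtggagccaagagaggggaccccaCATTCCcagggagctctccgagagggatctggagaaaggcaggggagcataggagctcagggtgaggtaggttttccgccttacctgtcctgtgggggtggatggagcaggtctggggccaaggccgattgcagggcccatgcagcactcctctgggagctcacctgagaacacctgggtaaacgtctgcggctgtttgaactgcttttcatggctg
Lama5 window: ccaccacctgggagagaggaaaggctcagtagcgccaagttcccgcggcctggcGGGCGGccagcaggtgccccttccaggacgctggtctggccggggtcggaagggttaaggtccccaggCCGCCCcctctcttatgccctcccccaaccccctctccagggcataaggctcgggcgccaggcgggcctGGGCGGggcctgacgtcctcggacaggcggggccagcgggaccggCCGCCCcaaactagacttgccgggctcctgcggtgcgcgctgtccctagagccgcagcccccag
The first Lamb3 window held none of the 4 motifs, and the second held the TEAD letters once, at -167 from the start. The Lama5 window held the GC box letters 4 times. Of all 32851 windows of this length, 35.7% held the GC box letters, 14.7% the TEAD letters, 7.81% the AP-1 letters and 13.6% the TATA letters. Promoter windows were given for 23 of the 36 genes, and of these 11 held a GC box, 3 the TEAD letters, 3 the AP-1 letters and none the TATA letters in any window. Counted in the same way, 38.2%, 16.6%, 8.97% and 15.7% of all 27025 genes with a window did.

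Among the epidermal members, Lama3 encodes the alpha3 chain. Lama3 had 29.8, 13.6 and 14.6 FPKM in D100L150 and 17.0, 14.7 and 14.7 FPKM in D150L150, against 5.30, 4.06 and 3.78 FPKM in Control. It had 2.29, 7.57 and 3.59 FPKM in D15L100, 6.19, 5.46 and 10.5 FPKM in D15L150, and 8.32, 7.75 and 18.8 FPKM in D15L200. All libraries of D15L150, D15L200, D100L150 and D150L150 lay above the highest Control library, as did 13 of the 15 spacer libraries in total. The exceptions were D15L100 1 and 3, both below the lowest Control library. Lama3 was higher by 1.84 ± 0.38 in D100L150 (SE, limma adjusted p = 0.0353) and by 1.62 ± 0.38 in D150L150 (limma adjusted p = 0.0435). The D100L150 call was lost without D100L150 1 (1.497, limma adjusted p = 0.211), without D150L150 1 or 2, and without any 1 of the Control libraries, with differences of 1.497 to 2.03 throughout. The D150L150 call passed in 7 of 18 fits with 1 library left out, at 1.54 to 1.74, and was lost without any 1 library of D150L150 or Control, D100L150 2, or replicate 1 or 2 of D15L150 or D15L200. With no filter on low values or with voom on recovered fragments, Lama3 passed neither in D100L150 (limma adjusted p = 0.0735 and 0.0517) nor in D150L150 (limma adjusted p = 0.0925 and 0.0579). Its mean in D100L150 was 4.41 times the Control mean.

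Lamb3 encodes the beta3 chain. Lamb3 had 59.6, 28.1 and 35.4 FPKM in D100L150 and 37.6, 38.2 and 33.8 FPKM in D150L150, against 13.1, 14.3 and 12.5 FPKM in Control. It had 7.41, 18.8 and 11.5 FPKM in D15L100, 14.7, 13.9 and 27.9 FPKM in D15L150, and 22.1, 20.3 and 45.5 FPKM in D15L200. D15L200, D100L150 and D150L150 did not overlap Control, but the differences of 0.99 ± 0.36, 1.49 ± 0.36 and 1.40 ± 0.36 missed the threshold (limma adjusted p = 0.184, 0.0567 and 0.0586).

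**Figure D1:**
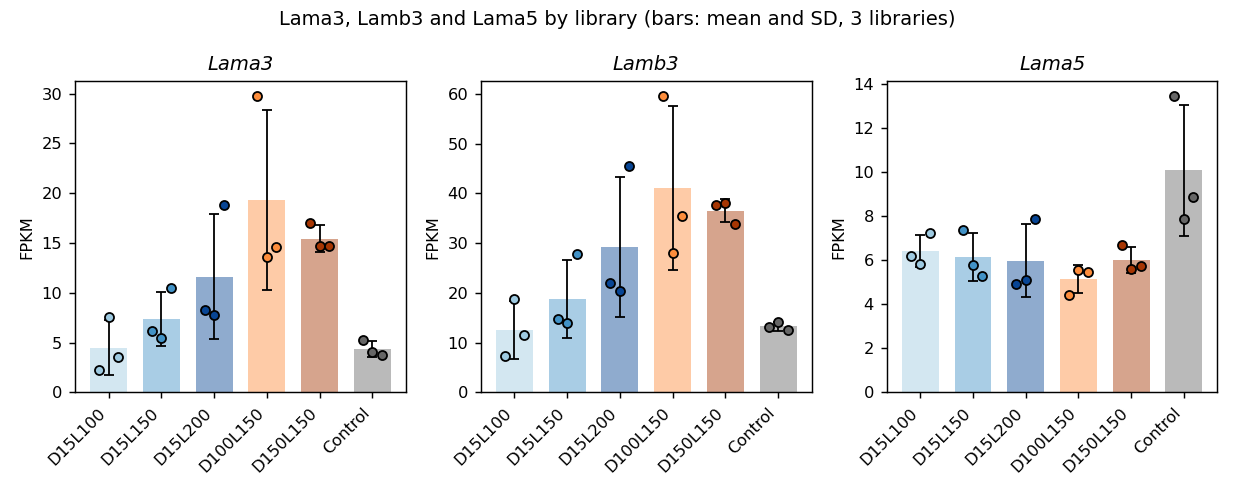
FPKM of Lama3, Lamb3 and Lama5 in each library by group, with bars at the group mean and whiskers of 1 SD over 3 libraries. The D100L150 and D150L150 libraries of Lama3 and Lamb3 all lie above the Control libraries, and all 15 spacer libraries of Lama5 lie below the lowest Control library, at 7.89 FPKM.

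The integrin alpha6 subunit gene, Itga6, at chromosome 2, 71786886 to 71858427, had 58.8, 34.0 and 49.5 FPKM in D100L150 and 49.4, 55.9 and 37.5 FPKM in D150L150, against 26.8, 23.4 and 25.7 FPKM in Control. It had 16.6, 28.3 and 28.3 FPKM in D15L100, 28.7, 24.0 and 51.9 FPKM in D15L150, and 31.4, 28.0 and 50.4 FPKM in D15L200. D15L200, D100L150 and D150L150 lay wholly above Control, and the D100L150 and D150L150 differences of 0.85 ± 0.30 and 0.87 ± 0.30 did not pass (limma adjusted p = 0.139 and 0.136). Its partner Itgb4, at chromosome 11, 115974725 to 116008412, had 31.4, 22.5 and 27.9 FPKM in D100L150 and 32.9, 31.7 and 30.1 FPKM in D150L150, against 8.32, 15.8 and 14.7 FPKM in Control. It had 7.91, 18.8 and 20.4 FPKM in D15L100, 20.5, 14.6 and 35.4 FPKM in D15L150, and 19.7, 19.98 and 33.3 FPKM in D15L200. D15L200, D100L150 and D150L150 did not overlap Control for Itgb4. Its differences of 1.05 ± 0.36 in D100L150 and 1.27 ± 0.36 in D150L150 did not pass (limma adjusted p = 0.123 and 0.0736). The ratio of Itga6 to Itgb4 was 3.22 in Control 1 and 1.24 to 2.09 in the other 17 libraries.

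Within the epidermal class the only gene called was Lama3. In D100L150, 1 of its 7 tested members rose and none fell, where 1.06% of all genes rose and 0.321% fell. In D150L150, 1 of 7 rose and none fell, where 2.03% of all genes rose and 0.398% fell. The median difference of the 7 members was 0.85 in D100L150 and 0.87 in D150L150, where the median of all genes tested was -0.05 and 0.00. The medians were -0.09 in D15L100, 0.37 in D15L150 and 0.47 in D15L200. Itgb6, a subunit of a receptor that activates transforming growth factor beta, lay at 1.53 to 3.18 FPKM over the 18 libraries, and Itga2, of the collagen receptor alpha2 beta1, at 1.02 to 6.17 FPKM. Neither separated from Control in D100L150 or D150L150. In D15L200 Itgb6 lay wholly below Control, at 1.66 to 1.95 FPKM against 1.98 to 2.86 FPKM, and its difference of -0.27 did not pass (limma adjusted p = 0.451). Itga3, whose product binds the same epidermal laminin with Itgb1, lay at 5.15 to 24.0 FPKM, and its D100L150 and D150L150 libraries were all above Control.

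Without a test, the members whose 3 libraries lay wholly above or below Control in D100L150 were 7 higher and 3 lower of 32, where 11% of all genes were higher in this way and 10.8% lower. The 7 were Itga3, Itga6, Itgb4, Lama3 and Lamb3 of the epidermis and Itgam and Itgb2 of leukocytes, and the 3 were Itga9, Itgax and Lama5. In D150L150 the same 5 epidermal genes lay above Control and Itga7, Itgax and Lama5 below it, where 14.3% of all genes were higher and 12.1% lower. Without Control 1 the counts were 9 higher and 5 lower in D100L150 and 6 higher and 4 lower in D150L150, where the shares of all genes were 16.5 and 18%, and 21.2 and 17.2%. In D15L100, D15L150 and D15L200, 0, 3 and 4 members lay wholly above Control and 1, 3 and 5 wholly below it. Itgb3 was among those below in D15L150 and D15L200. The share of all genes is not given for the D15 groups, so separation from Control there cannot be set against it.

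**Figure D2:**
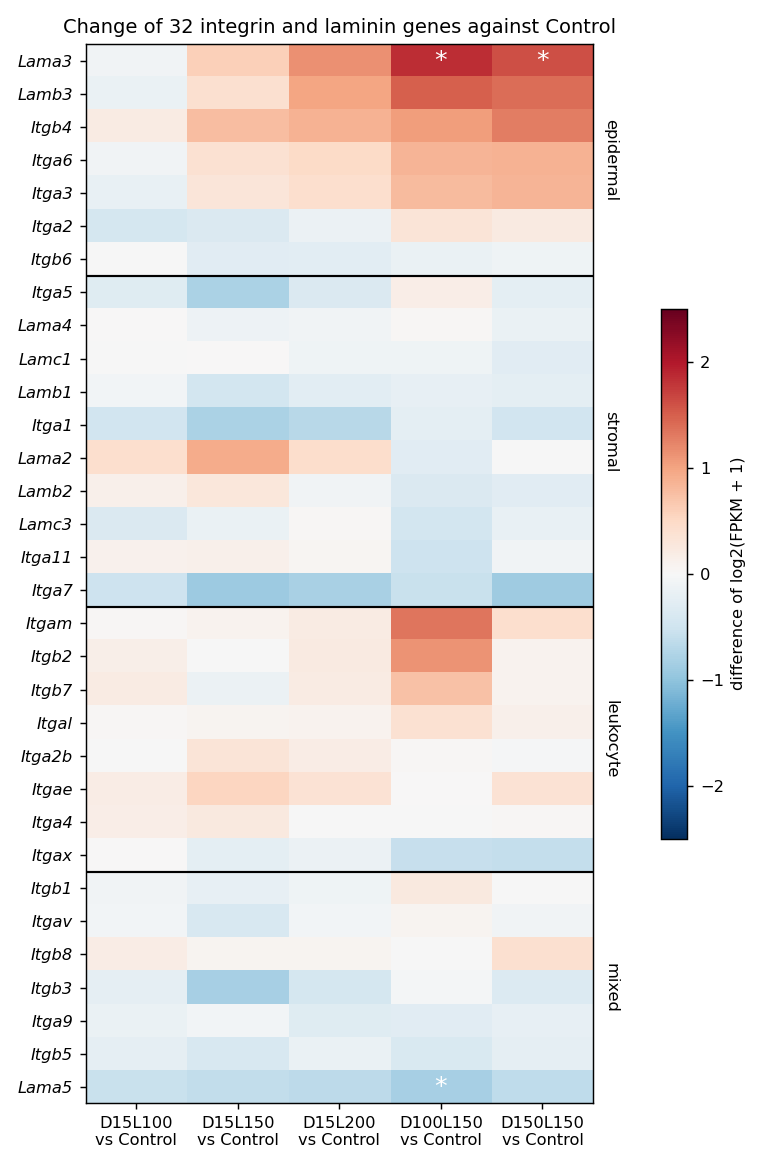
Difference of log2(FPKM + 1) from Control for the 32 tested genes (rows, by class and by their value in D100L150) in the 5 spacer groups (columns); red is higher than Control, blue lower, and an asterisk marks an adjusted p under 0.05. Lama3, with 1.84 in D100L150 and 1.62 in D150L150, and Lamb3 hold the deepest red cells, and the stromal rows are pale or blue except Lama2 in D15L150, at 0.93.

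Lama5 encodes the alpha5 chain, which is made by epidermis and hair follicle and by vessels and was therefore taken as mixed. Lama5 had 4.40, 5.56 and 5.47 FPKM in D100L150 and 6.71, 5.62 and 5.72 FPKM in D150L150, against 13.5, 7.89 and 8.87 FPKM in Control. It had 6.21, 5.82 and 7.22 FPKM in D15L100, 7.36, 5.77 and 5.26 FPKM in D15L150, and 4.91, 5.11 and 7.88 FPKM in D15L200. The highest spacer library, D15L200 3, was only just below the lowest Control library. Lama5 fell by 0.82 ± 0.19 on the log2 scale in D100L150 (limma adjusted p = 0.0492). In the mean of the 5 spacer groups it fell by 0.66 ± 0.15 (limma adjusted p = 0.0278), the 1 of 32 members called there, where 0.726% of all genes fell and 2.84% rose. Without Control 1, its highest library, the difference was -0.45 in the mean of the spacer groups and no longer passed (limma adjusted p = 0.304), and without Control 3 it was -0.72 (limma adjusted p = 0.0526). The D100L150 call passed in 3 of 18 such fits, those without D15L100 2, D15L150 3 or D15L200 3, and the difference was -0.97 to -0.61. Of the alternatives that keep all 18 libraries or only those of the groups compared, the D100L150 call passed with a pseudocount of 0.1 (limma adjusted p = 0.0499) and with none of the others (limma adjusted p = 0.0539 to 0.276). With no filter on low values, and with the basal keratinocyte or the skeletal muscle level as a covariate, the difference in the mean of the spacer groups did not pass either (limma adjusted p = 0.0598, 0.265 and 0.0558). The 4 endothelial marker genes summed to 65.6 to 193.8 FPKM over the spacer libraries, against 115.6 to 360.1 FPKM in Control, and their part in the Lama5 values was not tested.

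The laminin genes of one chain kind can be set against each other, since FPKM is scaled to gene length. Among alpha chains, Lama3 held 43.4, 25.7 and 26.7% of FPKM in D100L150 and 30.8, 25.7 and 32.0% in D150L150, against 11.8, 8.65 and 6.77% in Control. Lama5 held 6.41, 10.5 and 10.02% in D100L150 and 12.1, 9.83 and 12.5% in D150L150, against 29.9, 16.8 and 15.9% in Control. Shares of a chain kind have a fixed total, so a higher Lama3 share by itself lowers that of Lama5. In D15L100 Lama5 held 13.9, 11.1 and 16.9% and overlapped Control. It lay below Control in D15L150, at 10.85 to 13.3%, and in D15L200, at 9.12 to 14.9%. Lama4, the alpha chain of vessels and stroma, held the largest share in every library, at 44.9 to 72.0%. Among beta chains, Lamb3 held 53.3, 29.9 and 35.4% of FPKM in D100L150 and 37.6, 36.1 and 39.1% in D150L150, against 15.7, 16.1 and 14.2% in Control. It held 8.79, 20.7 and 14.1% in D15L100, 15.9, 14.96 and 37.5% in D15L150, and 24.6, 21.3 and 47.3% in D15L200. D15L150 3 and D15L200 3 thus stood well above the other libraries of their groups.

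**Figure D3:**
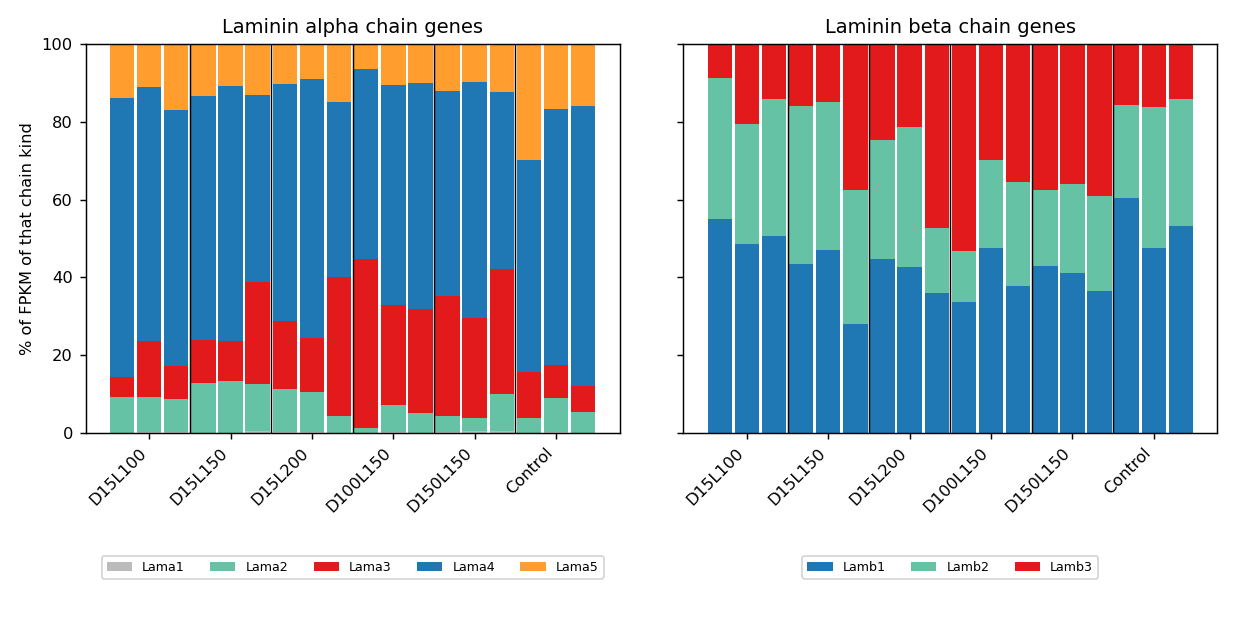
Share of each laminin gene in the summed FPKM of its chain kind (alpha or beta), in percent, with 1 bar per library in replicate order 1 to 3 within each group. The red segments are Lama3 and Lamb3; Lamb3 reaches 53.3% in D100L150 1 and 14.2% in Control 3.

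Lama3 and Lamb3 did not keep a fixed ratio. Lamb3 per Lama3 was 2.00, 2.06 and 2.43 in D100L150 and 2.21, 2.60 and 2.31 in D150L150, against 2.48, 3.51 and 3.29 in Control. Set against keratin 14, Lama3 per 100 FPKM of Krt14 was 0.654, 0.343 and 0.436 FPKM in D100L150 and 0.403, 0.367 and 0.367 FPKM in D150L150, against 0.672, 0.237 and 0.224 FPKM in Control. Control 1, with its low Krt14, was thus above all 15 spacer libraries, and Control 2 and 3 lay below all libraries of D100L150 and D150L150. Itgb4 per 100 FPKM of Krt14 was 0.690, 0.566 and 0.837 FPKM in D100L150 and 0.777, 0.793 and 0.754 FPKM in D150L150, against 1.056, 0.926 and 0.868 FPKM in Control. On that scale Itgb4 lay below Control in both groups. Lamb3 per 100 FPKM of Krt14 was 1.31, 0.708 and 1.06 FPKM in D100L150 and 0.889, 0.953 and 0.847 FPKM in D150L150, against 1.66, 0.833 and 0.736 FPKM in Control, and both groups overlapped Control. Itga3 and Itga6 also overlapped Control on that scale in both groups. Krt14 itself rose by 1.57 ± 0.32 in D100L150 and by 1.63 ± 0.32 in D150L150 (limma adjusted p = 0.0323 and 0.0250), the only one of the 4 basal keratinocyte genes called in either group. In D100L150 the keratin genes Krt5 and Krt15 differed by 0.69 ± 0.41 and -0.96 ± 1.33 and Trp63, a transcription factor of basal cells, by 1.01 ± 0.35, and none of them passed (limma adjusted p = 0.342, 0.702 and 0.131). In D150L150 they differed by 1.204, 1.31 and 1.42 (limma adjusted p = 0.128, 0.629 and 0.0503). Keratins 6a, 6b, 16 and 17 of wound epidermis rose in both groups, 4 of 4 genes, where 1.06% of all genes rose in D100L150 and 2.03% in D150L150. With the mean log2(FPKM + 1) of the 4 basal keratinocyte genes as a covariate, Lama3 was higher by 1.85 in D100L150 (limma adjusted p = 0.0443). That covariate is not the summed FPKM given above, and its D100L150 libraries overlapped Control. With the same covariate, Lama3 in D150L150 had a difference of 1.65 and did not pass (limma adjusted p = 0.329). With the level of the 6 skeletal muscle genes as a covariate, the differences of Lama3 were 1.43 in D100L150 and 1.06 in D150L150, and neither passed (limma adjusted p = 0.109 and 0.370).

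**Figure D4:**
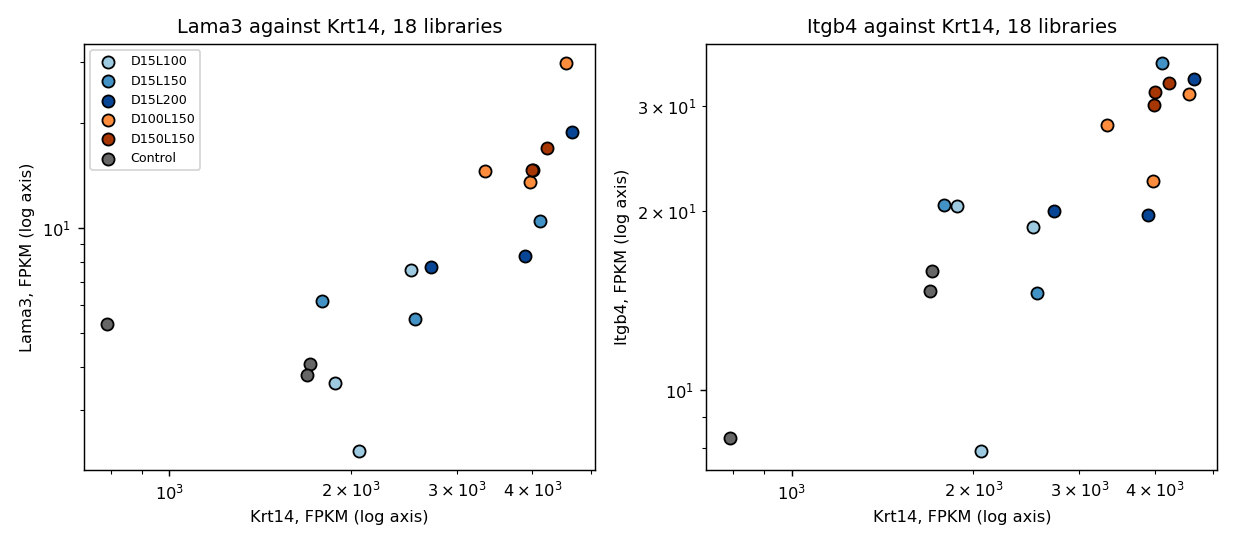
Lama3 (left) and Itgb4 (right) against Krt14 in the 18 libraries, both axes in FPKM on a log scale, 1 point per library coloured by group. The D100L150 and D150L150 points lie at the upper right of both panels, and so does D15L200 3, which has the highest Krt14, 4651 FPKM. D15L150 3 has the highest Itgb4, 35.4 FPKM. Control 1, at 788 FPKM of Krt14, stands apart at the left.

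The stromal members gave no call in any comparison. Lamc1, of the gamma1 chain, had 44.2, 41.2 and 45.6 FPKM in D100L150 and 39.2, 47.3 and 31.5 FPKM in D150L150, against 40.4, 46.8 and 55.8 FPKM in Control. Itga5, whose product is the fibronectin receptor with Itgb1, had 80.6, 42.0 and 52.1 FPKM in D100L150 and 60.1, 55.8 and 22.2 FPKM in D150L150, against 66.8, 37.1 and 49.9 FPKM in Control. Lamb1, of the beta1 chain, had 37.6, 44.5 and 37.7 FPKM in D100L150 and 43.1, 43.4 and 31.6 FPKM in D150L150, against 50.3, 41.9 and 46.6 FPKM in Control. In D100L150 and D150L150 all 3 overlapped Control. In the D15 groups Lamc1 lay at 35.4 to 58.3 FPKM, Itga5 at 21.1 to 52.0 FPKM and Lamb1 at 20.8 to 46.2 FPKM. Itga5 lay wholly below Control in D15L150, at 21.1 to 35.1 FPKM, and Lamb1 in D15L200, at 34.7 to 40.8 FPKM. The median difference of the 10 tested stromal members was between -0.26, in D100L150, and -0.05, in D15L100. The medians were 0.21 in D100L150 and 0.08 in D150L150 for the 8 tested leukocyte members, and -0.04 and -0.20 for the 7 tested mixed ones. Itga7, a laminin receptor subunit of muscle, had 10.5 to 27.4 FPKM in the 15 spacer libraries (median 17.3), against 49.8, 20.5 and 24.9 FPKM in Control. It had a difference of -0.73 ± 0.31 in the mean of the spacer groups that did not pass (limma adjusted p = 0.178). Without Control 1 it was -0.36, and with the basal keratinocyte level as a covariate -0.16. Itga7 differed by -0.51 in D15L100 and by -0.91 in D15L150, where the median difference of the 6 skeletal muscle genes was 0.18 and -0.20, with 5 and 2 of the 6 positive. All 6 skeletal muscle genes had negative differences in D15L200, D100L150 and D150L150. None of the 6 was called in any comparison with Control, and with their level as a covariate the Itga7 difference in the mean of the spacer groups was -0.71. The 4 pericyte and smooth muscle genes had a median difference of -0.56 in the mean of the spacer groups, with all 4 negative and none called. Their medians were -0.11 in D15L100 and -0.72 in D15L150, with 1 and 0 of the 4 positive. The part of these cells in the Itga7 values was not tested.

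Lama2, the alpha chain of muscle and nerve basement membranes, had the largest difference of a stromal member between spacer groups, and was singled out after its values were seen. Along the groups at L150 it had 7.09, 7.05 and 4.84 FPKM in D15L150, 0.781, 3.70 and 2.71 FPKM in D100L150, and 2.29, 2.04 and 4.44 FPKM in D150L150. The D15L150 libraries lay above both other groups. The difference of D100L150 from D15L150 was -1.20 ± 0.36 and did not pass (limma adjusted p = 0.412), and without D100L150 1 it was -0.79. In the same comparison all 6 skeletal muscle genes and all 5 fibroblast genes had negative differences, with medians of -1.24 and -1.06, and 3 of 4 Schwann cell genes did, the lowest at -3.94. With the level of these muscle genes as a covariate, the Lama2 difference was -0.93; the part of the other cells was not tested.

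The leukocyte and platelet members also gave no call. Itgb2, the shared beta subunit of leukocyte integrins, had 249.8, 106.7 and 125.2 FPKM in D100L150 and 87.0, 99.0 and 44.2 FPKM in D150L150, against 57.8, 64.2 and 86.2 FPKM in Control. Itgam, the alpha subunit that pairs with it on neutrophils and macrophages, had 290.8, 87.6 and 120.2 FPKM in D100L150 and 96.5, 115.1 and 39.6 FPKM in D150L150, against 52.8, 43.7 and 80.1 FPKM in Control. In the D15 groups Itgb2 lay at 50.1 to 123.3 FPKM and Itgam at 35.9 to 99.7 FPKM. Every D100L150 library exceeded Control for both genes, and D100L150 1 was by far the highest. The differences of 1.12 ± 0.40 for Itgb2 and 1.34 ± 0.52 for Itgam did not pass (limma adjusted p = 0.140 and 0.164), and without D100L150 1 they were 0.75 and 0.84. In D100L150 1 the 3 neutrophil marker genes summed to 9429 FPKM and the 3 platelet marker genes to 2949 FPKM, where the other 17 libraries reached at most 8153 and 1127 FPKM. The neutrophil sum was 8153 FPKM in D15L200 3 and 5913 FPKM in Control 1. In these libraries Itgam had only 78.3 and 52.8 FPKM and Itgb2 87.8 and 57.8 FPKM. The platelet sum came almost wholly from Pf4 and Ppbp, since Gp9 reached at most 0.0952 FPKM. The platelet integrin gene Itga2b had 1.76 FPKM in D100L150 1, within its range of 1.02 to 2.61 FPKM. The part of these cells in the values was not tested.

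Itgax, the alpha subunit of dendritic cells and macrophages, pointed the other way and was singled out after its values were seen. Itgax had 4.98, 6.20 and 3.32 FPKM in D100L150 and 5.34, 3.78 and 4.91 FPKM in D150L150, against 6.65, 8.998 and 6.94 FPKM in Control. Both spacer groups lay wholly below Control, but the differences of -0.57 ± 0.22 and -0.59 ± 0.22 did not pass (limma adjusted p = 0.168 and 0.163). Itgam and Itgax are 11034 bases apart on chromosome 7. Itgb7, a beta subunit of lymphocytes and mast cells, had 17.3, 6.94 and 8.86 FPKM in D100L150 and 7.01, 8.31 and 4.003 FPKM in D150L150, against 5.12, 5.06 and 7.51 FPKM in Control. These groups overlapped, and Itgb7 lay at 4.01 to 9.27 FPKM in the D15 groups. The remaining leukocyte members Itgal, Itga4, Itga2b and Itgae lay at 0.102 to 8.79 FPKM over all libraries, and Itgae, the alpha subunit of resident lymphocytes, reached 1 FPKM in only 4 libraries. The lymphocyte markers Cd79a and Ms4a1 and the platelet marker Gp9 were listed at 0 in at least 1 library.

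**Figure D5:**
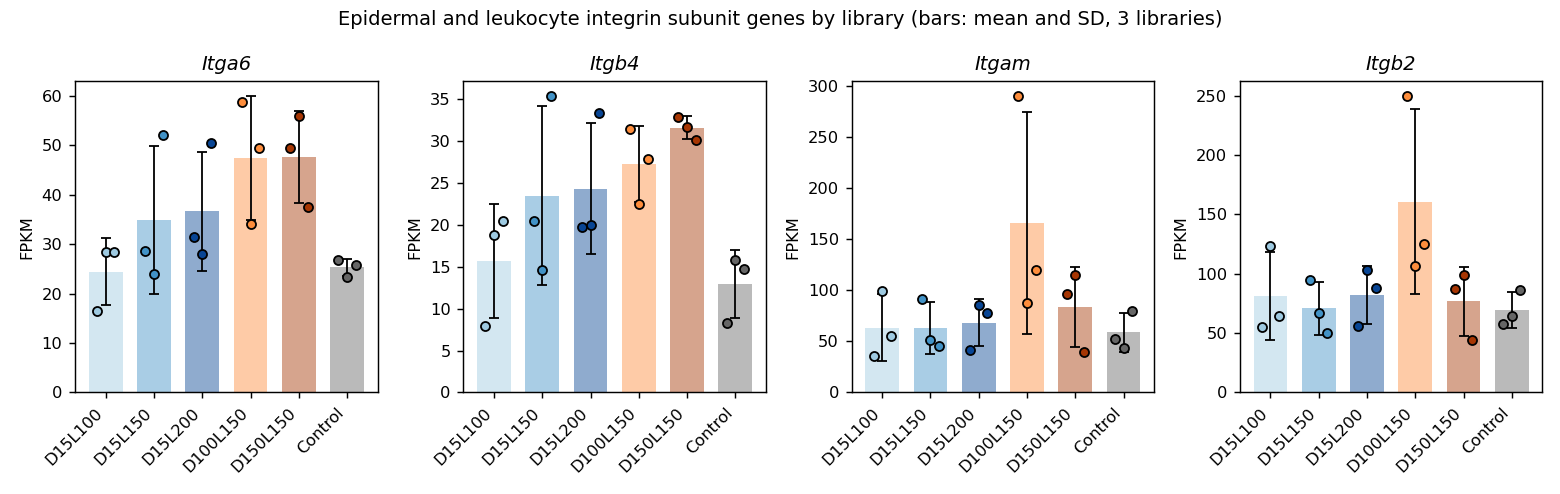
FPKM of the epidermal integrin genes Itga6 and Itgb4 and the leukocyte integrin genes Itgam and Itgb2 in each library by group, with bars at the group mean and whiskers of 1 SD over 3 libraries. Itga6 and Itgb4 are above Control in all libraries of D100L150 and D150L150, and the highest point of Itgam, 290.8 FPKM, is D100L150 1.

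Of the broad or mixed members other than Lama5 none was called. Itgb1, the most abundant of all the members and the beta subunit shared by most matrix receptors, had 273.1, 191.2 and 219.2 FPKM in D100L150 and 202.2, 218.4 and 152.7 FPKM in D150L150, against 230.0, 159.6 and 183.9 FPKM in Control, and 153.8 to 184.6 FPKM in the D15 groups. Its highest library was 1.79 times its lowest. Itgb5, a vitronectin receptor subunit, had 40.0, 60.0 and 49.8 FPKM in D100L150 and 58.5, 49.1 and 56.7 FPKM in D150L150, against 83.4, 53.6 and 59.2 FPKM in Control, and 41.4 to 65.0 FPKM in the D15 groups. Itgav, which pairs with it, had 23.7, 14.6 and 13.0 FPKM in D100L150 and 18.6, 13.99 and 12.2 FPKM in D150L150, against 19.9, 13.3 and 14.8 FPKM in Control, and 10.3 to 18.5 FPKM in the D15 groups. All 3 overlapped Control and none passed the test. Control 1 was the highest Control library for each of these 3 genes.

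Among the D15 groups and between spacer groups no member was called. In D15L100, D15L150 and D15L200 against Control, 0 of 32 members passed limma's test, where 0%, 0% and 1.56% of all genes did; 1, 9 and 6 of the 32 members had an unadjusted p under 0.05, where 3.30%, 19.8% and 17.3% of all genes did. In the 6 pairs of spacer groups that share a D or an L number, and in the F tests over D15L100, D15L150 and D15L200 and over D15L150, D100L150 and D150L150, no member and 0% of all genes passed. At an unadjusted p under 0.05 there were 10 members in D100L150 against D15L150, 4 in D150L150 against D15L150, 2 in D15L200 against D15L100, 1 in D150L150 against D100L150 and 0 in the other pairs. Of all genes 11.4%, 4.95%, 5.18% and 2.20% had such a p in these 4 pairs. Lama3 and Lamb3 had group means in the order D15L100, D15L150, D15L200, from 4.48 through 7.37 to 11.6 FPKM for Lama3, but the libraries of neighbouring groups overlapped and the F test did not pass (limma adjusted p = 0.993). Along L150 Lama3 averaged 7.37 ± 2.70 FPKM in D15L150, 19.3 ± 9.07 FPKM in D100L150 and 15.5 ± 1.36 FPKM in D150L150 (SD, n = 3 each), and the F test did not pass either (limma adjusted p = 0.743). Because the comparisons with Control share the same 3 Control libraries, their results are not independent of each other.

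The genes that work with these receptors gave 1 call among 4 lists. Cdh1, encoding E-cadherin, a ligand of the integrin of Itgae and Itgb7 and the adhesion molecule of epithelia, rose by 1.38 ± 0.30 in the mean of the spacer groups (limma adjusted p = 0.0258) and by 1.87 ± 0.39 in D150L150 (limma adjusted p = 0.0303). It averaged 67.7 ± 19.1 FPKM in D150L150, against 19.4 ± 9.98 FPKM in Control (SD, n = 3 each). Of all genes 2.84% rose and 0.726% fell in the mean of the spacer groups, and 2.03% rose in D150L150. Of 11 tested integrin ligands Cdh1 was the only one called, and osteopontin, Spp1, had a difference of -1.22 ± 0.57 that did not pass. Of 6 hemidesmosome and anchoring genes none was called in any comparison with Control; Col17a1, a hemidesmosome collagen, differed by 1.06 ± 0.38 and Cd151, an integrin-bound tetraspanin, by -0.30 ± 0.12 in the mean of the spacer groups. Of 15 intracellular adhesion complex genes none was called, and the smallest p values belonged to Parvb, at -0.58 ± 0.19, and Bcar1, at -0.26 ± 0.10. Of 9 basement membrane genes none was called, and the collagen IV genes Col4a1 and Col4a2 differed by -0.69 ± 0.26 and -0.65 ± 0.26. The median difference in the mean of the spacer groups was -0.05 for the hemidesmosome list, -0.14 for the adhesion complex list, -0.13 for the basement membrane list and -0.10 for the ligands, where that of all genes was -0.04.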

How the data were processed

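Per the labels' protocols, TRIzol was used for RNA and the VAHTS Universal V6 kit for libraries. The authors deposited FPKM values of 27743 genes in 18 libraries. The build mm10 and the tools DESeq2, HTSeq, HISAT2, fastp and R 3.2.0 stand in the submitters' processing notes without a role. Annotation and strandedness of the counting: not given in the sources used here. Because FPKM is relative to a library's total, a few abundant transcripts shift all others. Whole fragments could be recovered from the steps of the values in 99.9964% of genes (relative tolerance 1e-07).

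Values were taken as log2(FPKM + 1), and genes with at least 1 FPKM in at least 3 libraries were kept, 13078 in all. A limma 3.58.1 model (R 4.3.3) with 1 mean per group, trended robust empirical Bayes moderation and Benjamini-Hochberg adjustment was fitted to all 18 libraries. It was tested on simulated data. No label says that libraries came from separate animals, so p-values cover only library-to-library spread, which may be technical. Libraries within a group differed by far more than counting noise (mean chi-square per gene from 47.6 to 279.7). Each was counted as 1 replicate, but this spread does not show that libraries came from separate animals.

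1 gene that matches the naming rule is not reported here and is left out of all member counts. The members, classes and lists were chosen with earlier results of these data known. Values per library are given for called members and for the 3 members of each class with the highest mean FPKM; others are given by range, or named after their values were seen. Partner genes are named where called or among the 2 smallest p of their list. Gene positions and promoters come from RefSeq, GRCm38.p6. Alternatives were a pseudocount of 0.1, no filter, quantile scaling, TPM scaling, the replicate number as a block, only the groups compared, each library left out, voom on the recovered fragments, and a basal keratinocyte or skeletal muscle level as a covariate.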

Additional observations from a re-analysis of the deposited data

How the results depend on the processing

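The member counts depended on the processing; as reported, the adjusted p of the calls was 0.0278 to 0.0492. In the mean of the spacer groups against Control, where 1 member was called, 0 were called with no filter on low values, with the basal keratinocyte covariate and with the skeletal muscle covariate, and 0 to 2 when 1 library was left out. In D100L150 against Control, where 2 were called, 0 were called with no filter, with the replicate block, with the skeletal muscle covariate, with voom on recovered fragments and with only the groups compared in the fit, and 1 with quantile scaling, with TPM scaling and with the basal keratinocyte covariate. It was 0 to 3 without 1 library; each Control library, D100L150 1 and D150L150 1 and 2 took the count to 0. In D150L150 against Control, where 1 was called, 0 were called with no filter, with the replicate block, with either covariate and with voom, 2 with only the groups compared, and 0 to 3 without 1 library. Counts of 0 in the other comparisons stayed at 0 under all alternatives run. With the replicate block the mean of the spacer groups kept its count of 1. Whether the replicate numbers pair the libraries was not settled. The correlation of same-numbered deviations was over 0.1 in 6, 8 and 4 of 15 pairs of groups for numbers 1, 2 and 3. Differently numbered libraries were not compared. Of 1613 single log2 differences recomputed, 1544 kept their direction and their side of the threshold. Of the rest, 55 lost the call, 12 gained one and 2 changed sign. Most of the 1613 were of uncalled differences, which cannot lose a call, so the 1544 do not measure how stable the calls were. All 55 were of the called differences of Lama3 and Lama5. With 1 library left out, Lama3 passed in 12 of 18 fits in D100L150 and 7 of 18 in D150L150. Lama5 passed in 3 of 18 in D100L150 and 16 of 18 in the mean of the spacer groups. Both changes of sign were of Lama3 in D15L100 against Control, near 0 and uncalled. At -0.08 as reported, it ranged from -0.46 to 0.23 when 1 library was left out, above 0 without D15L100 1 and without Control 1 (0.04). The cause was not tested. Genes near 1 FPKM, such as Itgae and Lamc3, rest on few fragments, from 13 and 25 in their lowest library.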
